A study of Mus musculus with 10 samples.

Results

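The translation initiation factor genes are those whose symbol in the array's probe annotation begins with Eif1, Eif2, Eif3, Eif4, Eif5 or Eif6, with the Y-linked Eif2s3y left out. The rule used names and no measured value. It gave 46 of the 18194 genes with a probe set of their own, and these 46 genes had 131 of the 45037 probe sets tested. A probe set is a group of short probes that reads one stretch of a transcript, and its identifier is given after the gene symbol. Expression was measured on Affymetrix whole-genome mouse arrays in whole gastrocnemius, a calf muscle of mainly fast fibres. There were 5 arrays of mice deficient in Skn-1, also called Pou2f3, and 5 arrays of wild-type mice, and the labels call them biological replicates. Pou2f3 is a transcription factor of the POU family, best known for the making of taste receptor cells and tuft cells. Both genotypes were male, 12 to 16 weeks old, fed chow and then fasted for 18 h, and the series has no fed group, so the effect of fasting itself was not measured. The labels give a mixed 129 x C57BL/6J origin and more than 10 generations of crossing to C57BL/6J. The extent of the deletion is not in the labels. The comparison asks whether fasted muscle without Skn-1 holds other amounts of the transcripts of the initiation machinery.

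Initiation begins when eIF2 carries the initiator tRNA to the small ribosomal subunit, which eIF1, eIF1A and eIF3 hold open for scanning. The eIF4 factors recognise the cap and unwind the leader, and eIF5 and eIF5B release eIF2 and join the large subunit. Muscle slows this machinery in fasting mostly at the protein level, through eIF2 kinases and through 4E-binding proteins that mTORC1 no longer phosphorylates. The arrays measured RNA and not those protein states.

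One reading of 1 gene separated the genotypes past the threshold. Probe set 1415859_at of Eif3c, a core subunit of eIF3, rose from 9.32 ± 0.0553 to 9.69 ± 0.0865 (wild type to knockout, SD, n = 5 each), 1.29 times the wild-type level. The other 3 Eif3c probe sets had differences of 0.04 to 0.08 that did not pass. Eif5b, the GTPase that joins the large ribosomal subunit, had knockout values 1.21 times those of wild types without overlap, and missed the threshold. Of the 131 member probe sets, 1 passed an adjusted p of 0.05 with limma (Benjamini-Hochberg over all probe sets), where 0.191% of all probe sets passed in either direction and 0.155% passed as higher in knockouts.

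The promoters of the 3 genes with the smallest p among probe sets that varied on an ordinary scale are shown here, because the missing protein is a POU factor and such factors bind the octamer ATGCAAAT. Each window holds the 150 bases before the RefSeq gene start in GRCm38.p6, written 5′ to 3′ on the gene's strand, with capitals for matches to the motifs searched. Eif3c is on the minus strand, and its window is chr7:126566367-126566516. Eif5b is on the plus strand, with the window chr1:37997860-37998009. Eif4h is on the minus strand, with the window chr5:134639410-134639559.
Eif3c: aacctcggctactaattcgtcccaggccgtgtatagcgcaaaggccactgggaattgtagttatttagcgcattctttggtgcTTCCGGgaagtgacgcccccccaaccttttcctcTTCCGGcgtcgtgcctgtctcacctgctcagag
Eif5b: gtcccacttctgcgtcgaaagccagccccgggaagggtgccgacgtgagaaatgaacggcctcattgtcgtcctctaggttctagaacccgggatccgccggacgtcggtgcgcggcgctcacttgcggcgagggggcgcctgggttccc
Eif4h: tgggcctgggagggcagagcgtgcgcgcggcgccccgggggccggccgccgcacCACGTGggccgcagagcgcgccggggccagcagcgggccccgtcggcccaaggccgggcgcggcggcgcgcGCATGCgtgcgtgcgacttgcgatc
The 2 matches in the Eif3c window are the ETS core CCGGAA read on the other strand, at 67 and 33 bases before the start. In the Eif4h window the matches are the E-box CACGTG at 96 bases and the NRF1 core GCATGC at 25 bases before the start, and the Eif5b window had no match. The matches printed do not overlap each other, and all motifs were searched on both strands.

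Over the 50 windows found for 37 of the member genes, the octamer was in 0, against 0.998% of the 32851 windows of all genes. In a longer window that also took in the start it was in 0 member windows and in 1.74% of all. At shares this low 50 windows hold few matches or none, so the count of 0 says little. The ETS core was in 30.0% of member windows and 9.23% of all. For the GC box GGGCGG the shares were 56.0% and 28.6%, and for the E-box 14% and 4.3%. The NRF1 core was in 6.0% and 4.47%, TATAAA in 2.0% and 7.57%, and CCAAT in 22% and 24.5%. Windows of the same gene can overlap, and these matches describe letters only, not binding.

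The deposited values were taken as log2, and they came in 2 kinds that decide which members can be read. Of all probe sets, 86.2% varied by an SD of 0.01 or less over the 10 arrays, so that their differences have no size that can be read. These are called low-variation here, and the other 6209 ordinary. Among the member probe sets 42, or 32.06%, were ordinary, against 13.79% of all probe sets. The 42 came from 23 genes, and the other 23 genes had no ordinary probe set. Nearest the limit were Eif1ax 1419736_a_at, with an SD of 0.0259, on the ordinary side, and Eif4e 1423220_at, with an SD of 0.0017, on the other. No member lay between them, and the 42 were the same in number when the SD was pooled within genotypes.

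Level and probe type went with the ordinary kind. When all probe sets were ranked by mean and parted into 4 equal bins, the brightest bin began at 7.057, and in it 50% of 82 member probe sets and 44.26% of all were ordinary. In the next bin it was 1 of 24 members, or 4.167%, and 8.065% of all. The 2 dimmest bins held 8 and 17 members, of which 0 were ordinary. By the ending of the identifier, 22.09% of members ending in plain _at were ordinary, 47.83% of those ending in _a_at, 80% of the 5 in _s_at and 47.06% of those in _x_at. Over all probe sets the same shares were 11.18%, 24.83%, 24.52% and 23.06%. The endings _s_at and _x_at mark probe sets that can also match other transcripts, so their values are less certain as readings of a single gene.

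**Figure D1:**
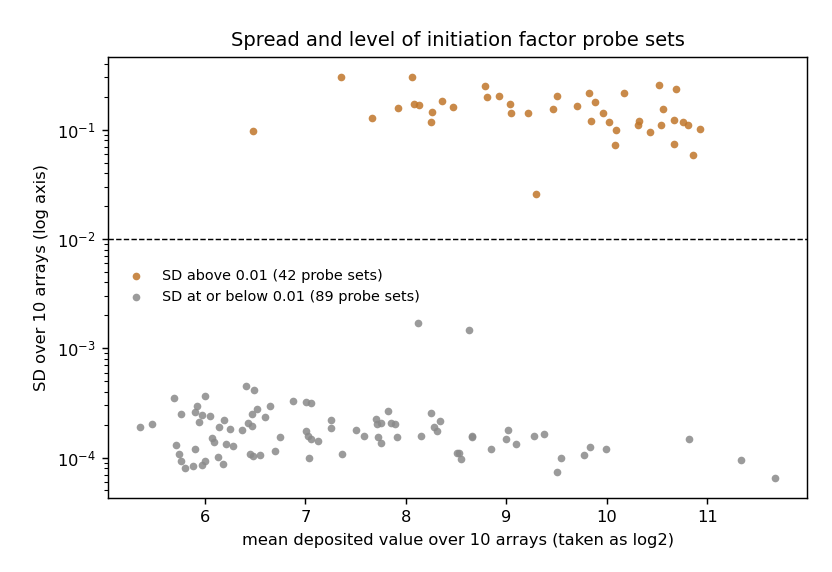
SD over the 10 arrays (log axis) against mean deposited value for the 131 initiation factor probe sets, with a dashed line at the SD limit of 0.01. The 42 ordinary probe sets lie from 0.0259 to 0.302 and the 89 others at or below 0.0017, with no point between.

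Some facts of the arrays touch every member. Array medians ran from 6.226 to 6.239, and pairs of arrays correlated at 0.95 to 0.993 over ordinary probe sets. The number of arrays limits the precision. The probe set of Pou2f3 was low-variation and stood at 6.47 in both genotypes (limma unadjusted p = 0.577), so it does not check the labels. The 15 muscle fibre marker genes were all measured. The mean level over their 16 ordinary probe sets was 11.87 to 12.02 in knockouts and 11.62 to 11.86 in wild types, without overlap. Of the 16, 13 were higher in knockouts, against 49.2% of all ordinary probe sets, and 0 passed an adjusted p of 0.05 with limma. The 16 belonged to Ttn, Myh4, Ckm, Neb, Myh2, Myh1, Actn3, Des and Mylpf only, and Ttn had the most. The 2 whose own values did not overlap were both of Ttn, with differences of 0.67 and 1.03. Over all ordinary probe sets 3.37% were higher in knockouts without overlap. In whole muscle, fewer cells of a type and less RNA per cell cannot be told apart. Of 18 epidermis and hair markers, all were measured. Mean levels over their ordinary probe sets were 5.88 to 7.37 in knockouts and 5.88 to 6.97 in wild types. Knockout arrays 1 and 4 and wild-type arrays 1 and 3 stood at least 1.0 above the median array in these. Of 17 lymphocyte markers 15 were measured, at 5.95 to 7.68 in knockouts and 5.93 to 7.69 in wild types, with knockout 5 and wild type 3 high. The part of these markers in the differences below was not tested. Adipocyte and macrophage markers were not used to choose those 5 arrays. Without the 5 only knockouts 2 and 3 and wild types 2, 4 and 5 remained. These still differed in adipocyte markers, with wild types 4 and 5 at −0.57 and 0.25 from the median array. In the fit without the 5 arrays 0 of all probe sets passed the adjusted threshold. Failing to pass in that fit therefore says little about a member. The differences of 33 of the 42 ordinary members kept their sign without the 5 arrays, and 6 moved by more than 0.1. For these 6 and for the members with the smallest p the value without the 5 arrays is given.

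Across the 42 ordinary member probe sets, 17 had a higher mean in knockouts and 25 a lower one, with a median difference of −0.02. Over all ordinary probe sets 49.2% were higher and the median was −0.0021. Differences are knockout minus wild type on the log2 scale. Their range was −0.31 to 0.37, and 23 of the 42 were within 0.1 of zero. At an unadjusted limma p under 0.05 there were 10 of the 131, 5 in each direction, where 6.62% of all probe sets were found. Of the 42 ordinary ones 6 were found, against 9.92% of all ordinary probe sets. They were Eif3c, Eif5b, Eif4e3 and Eif3a on the higher side, where 7.44% were found over all, and Eif4h and Eif3i on the lower side, where 2.48% were found. The remaining 4 were low-variation, 2 of Eif5 and 1 each of Eif4a2 and Eif4ebp2, in a class where 6.09% were found. Among ordinary probe sets 0.837% passed the adjusted threshold as higher in knockouts. Values of the genotypes did not overlap in 3 ordinary members that were higher in knockouts (3.37% over all ordinary probe sets) and in 1 that was lower (0.596% over all).

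**Figure D2:**
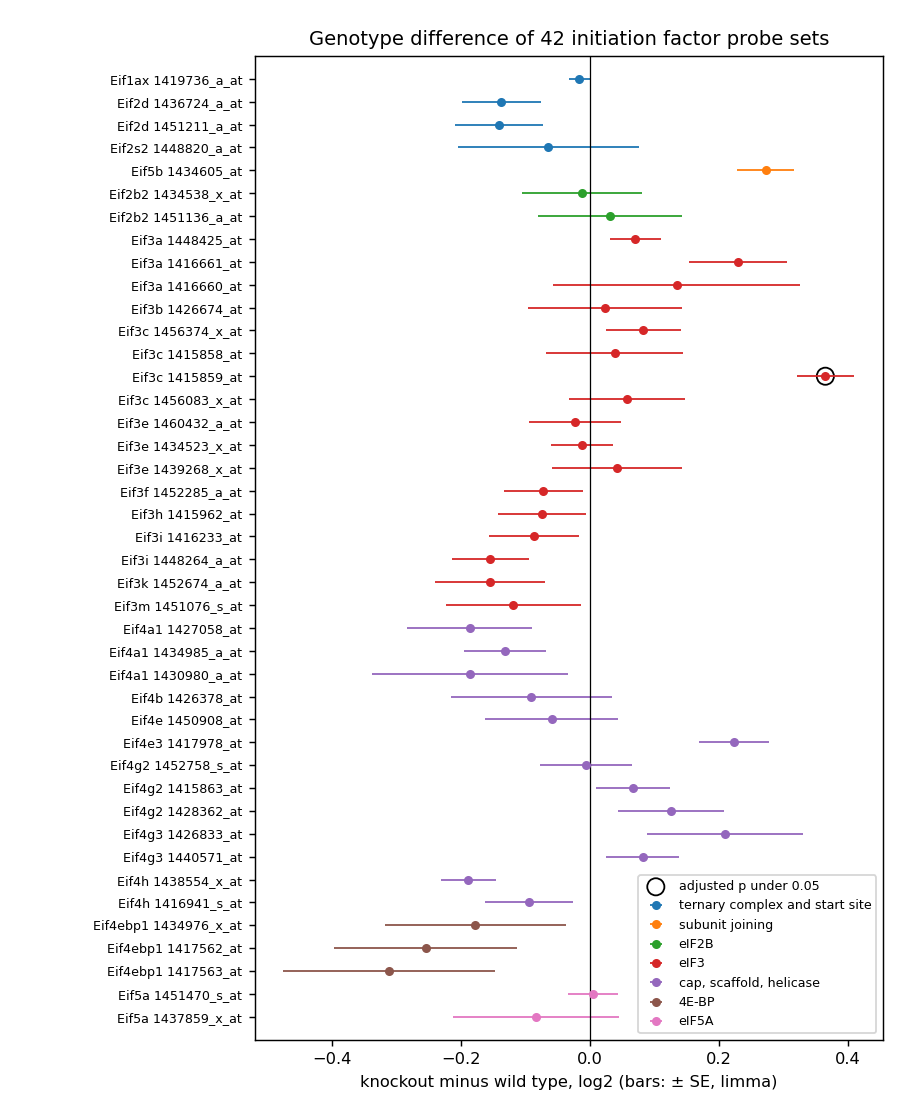
Knockout minus wild type on the log2 scale for the 42 ordinary initiation factor probe sets, by role, with bars of 1 SE from limma over 5 arrays of each genotype. Only Eif3c 1415859_at, ringed at 0.37, passed the adjusted threshold of 0.05, and 2 of the 3 Eif4ebp1 probe sets lie farthest to the left, at −0.25 and −0.31.

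The factors of start site scanning and the ternary complex had no member past the test. Of 8 genes and 26 probe sets 4 probe sets were ordinary, and the means of all 4 were lower in knockouts, by 0.02 to 0.14. Eif2s2, the beta subunit of eIF2, had its brightest ordinary reading in 1448820_a_at. The knockout arrays gave 10.09, 9.94, 9.72, 9.52 and 9.68, and the wild-type arrays 10.18, 9.65, 9.99, 9.80 and 9.64. The genotypes overlapped over nearly their whole range (difference −0.06 ± 0.141 SE, limma unadjusted p = 0.656). Without the 5 arrays with markers of other tissues the difference was 0.13.

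Eif2d, which can deliver tRNA to the ribosome apart from eIF2, had 2 ordinary probe sets of its 6. Their knockout means were 8.18 and 7.59 and their wild-type means 8.32 and 7.74 (differences −0.14 for both, limma unadjusted p = 0.0533 and 0.0725). Wild type 1 was the highest array in both, and without the 5 arrays with markers of other tissues the differences were −0.05 and −0.07. Eif1ax, a scanning factor encoded on the X chromosome, was nearly level in 1419736_a_at, at 9.29 in knockouts and 9.31 in wild types. Eif1a, Eif1b, Eif1ad, Eif2a and Eif2s3x, the X-linked gamma subunit of eIF2, had no ordinary probe set. The low-variation probe sets of the 8 genes had levels of 5.47 to 11.33.

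The arms that control eIF2 gave little that could be read. The 4 kinases that phosphorylate eIF2 are Eif2ak1 (heme-regulated), Eif2ak2 (activated by double-stranded RNA), Eif2ak3 (endoplasmic reticulum stress) and Eif2ak4 (amino acid shortage). All of their 13 probe sets were low-variation, with levels of 5.74 to 7.01 and a median of 6.14, close to the array medians. For eIF2B, the exchange factor that reloads eIF2 with GTP, 2 of 8 probe sets were ordinary, both of Eif2b2. In its 1434538_x_at the knockout arrays gave 8.77, 8.99, 9.30, 8.99 and 9.16, and the wild-type arrays 9.02, 9.12, 9.01, 9.16 and 8.97. Knockouts held both the lowest and the highest value, and the means were 9.04 and 9.06. The other Eif2b2 probe set differed by 0.03 ± 0.112 SE. Eif2b1, Eif2b3, Eif2b4 and Eif2b5 stood at 5.88 to 8.66, all low-variation.

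At the step of subunit joining, Eif5b had 1 ordinary probe set of 3, 1434605_at. Its knockout arrays gave 8.13, 8.09, 8.02, 8.09 and 7.98, and its wild-type arrays 7.88, 7.78, 7.71, 7.87 and 7.71. Every knockout array was above every wild-type array, by at least the gap from 7.88 to 7.98. The difference was 0.27 ± 0.044 SE, or 1.21-fold, with an unadjusted limma p of 0.000208 and an adjusted p of 0.0756. The adjusted p was 0.0472 when only probe sets with a mean above the median were tested, and 0.0288 when only ordinary ones were. Without the 5 arrays with markers of other tissues the difference was 0.27, with an adjusted p of 0.835, in a fit where 0 probe sets of the array passed. Eif5, which triggers GTP hydrolysis by eIF2, and Eif6, which keeps the large subunit apart from the small one, had 7 probe sets between them, none of them ordinary. The 9 low-variation probe sets of this step stood at 6.6 to 9.99.

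The eIF3 complex was the best measured. It is the largest initiation factor, an assembly of many subunits that binds the small ribosomal subunit. Of the 11 eIF3 genes among the members 9 had an ordinary probe set, and 17 of their 27 probe sets were ordinary. Eif3j1 and Eif3j2, whose probe sets are shared between them, were left out. Of the 17, 9 were higher in knockouts and 8 lower, with a median of 0.02. Of the 17, 1 in Eif3c passed the adjusted limma test as higher, where 0.837% of all ordinary probe sets did.

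For Eif3c 1415859_at the knockout arrays gave 9.77, 9.74, 9.72, 9.56 and 9.64, and the wild-type arrays 9.25, 9.32, 9.38, 9.37 and 9.28. All knockout arrays lay above all wild-type arrays. The difference was 0.37 ± 0.0447 SE (limma unadjusted p = 2.74e-05, adjusted p = 0.0257). With array 1, 2, 3 or 5 of the knockouts or any wild-type array left out the adjusted p was 0.0579 to 0.0972 and the difference 0.35 to 0.38. Without knockout 4 it was 0.0214. Without the 5 arrays with markers of other tissues the difference was 0.41 (limma unadjusted p = 0.000476, adjusted p = 0.71). In that fit 0 probe sets of the array passed.

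The other Eif3c probe sets did not repeat this separation. In 1456374_x_at the knockout arrays gave 10.07, 10.07, 10.17, 10.17 and 10.19, and the wild-type arrays 10.03, 10.25, 10.05, 10.00 and 9.92. Its highest value was wild type 2, and the difference was 0.08 ± 0.0586 SE (limma unadjusted p = 0.193). In 1415858_at the knockout arrays gave 9.49, 9.56, 9.85, 9.80 and 9.90, and the wild-type arrays 9.45, 9.79, 9.83, 9.74 and 9.58. Array 1 of each genotype was the lowest of its group, and the groups overlapped (difference 0.04 ± 0.106 SE, limma unadjusted p = 0.724). In 1456083_x_at the knockout arrays gave 9.05, 9.08, 9.29, 9.42 and 9.39, and the wild-type arrays 9.01, 9.21, 9.31, 9.25 and 9.15. These too overlapped (difference 0.06 ± 0.09 SE, limma unadjusted p = 0.536).

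**Figure D3:**
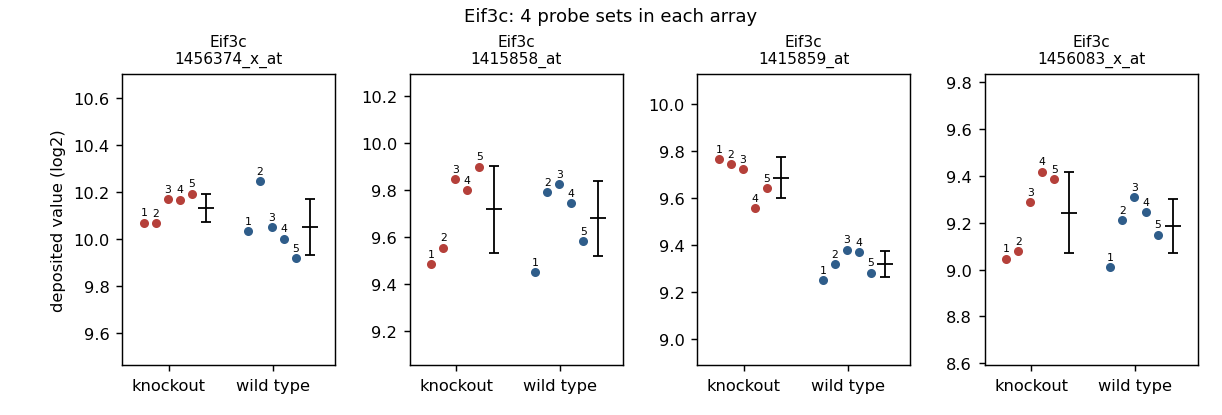
Deposited values (log2) of the 4 Eif3c probe sets in each array, numbered by replicate, with the mean and SD (n = 5) of each genotype beside the points. In 1415859_at all knockout points, 9.56 to 9.77, lie above all wild-type points, 9.25 to 9.38, and in the other 3 probe sets the genotypes overlap.

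The gap between 2 probe sets of a gene, taken within each array, tested whether they moved alike. From 1456374_x_at to 1415859_at of Eif3c the gap was 0.447 ± 0.136 for knockouts and 0.730 ± 0.126 for wild types (SD, n = 5 each), and the ranges 0.304 to 0.611 and 0.632 to 0.926 did not overlap. The gaps thus differed by −0.28 (exact two-sided permutation p = 0.00794, the smallest that 252 splits can give, adjusted p = 0.151 over 19 pairs). From 1456374_x_at to 1415858_at and to 1456083_x_at the gaps differed by 0.04 and 0.02 (exact permutation p = 0.619 and 0.754). Over the 10 arrays 1415859_at correlated with 1456374_x_at at r = 0.351 (permutation p = 0.320, adjusted p = 0.357) and rho = 0.418 (p = 0.233, adjusted p = 0.294). Without the 2 arrays farthest from the median r was 0.542.

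Eif3a, the largest eIF3 subunit, had 3 ordinary probe sets of 4. For 1416661_at the knockout arrays gave 8.42, 8.21, 8.24, 8.25 and 8.13, and the wild-type arrays 8.04, 8.23, 7.96, 8.01 and 7.85. Wild type 2 lay inside the knockout range and the other wild types below it (difference 0.23 ± 0.0761 SE, limma unadjusted p = 0.0157, adjusted p = 0.556). Without the 5 arrays with markers of other tissues the difference was 0.19 (limma unadjusted p = 0.231). In 1448425_at the knockout arrays gave 10.10, 10.05, 10.10, 10.13 and 10.18, and the wild-type arrays 9.93, 10.12, 10.03, 10.11 and 10.00. The groups overlapped, with a difference of 0.07 ± 0.04 SE (limma unadjusted p = 0.113). In 1416660_at the knockout arrays gave 6.97, 7.18, 7.67, 7.42 and 7.86, and the wild-type arrays 6.89, 7.38, 7.51, 7.48 and 7.17. Its spread was the widest among ordinary members, with an SD of 0.302 over all arrays (difference 0.13 ± 0.191 SE, limma unadjusted p = 0.501). The gap between 1448425_at and 1416661_at differed by −0.16 between genotypes (exact permutation p = 0.0476, adjusted p = 0.452).

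Among the remaining eIF3 subunits the differences ran from −0.16 to 0.04. Eif3i, a propeller-shaped subunit, gave 10.65, 10.49, 10.69, 10.57 and 10.52 in knockouts and 10.83, 10.62, 10.82, 10.62 and 10.80 in wild types for 1448264_a_at. The groups overlapped between 10.62 and 10.69 (difference −0.15 ± 0.0603 SE, limma unadjusted p = 0.0323, adjusted p = 0.685), or −0.09 without the 5 arrays with markers of other tissues (limma unadjusted p = 0.441). Its other probe set differed by −0.09. Eif3f, a peripheral subunit known in muscle as a target of the atrophy ligase atrogin-1, gave 10.98, 10.85, 10.83, 10.88 and 10.92 in knockouts and 11.17, 10.89, 10.999, 10.86 and 10.89 in wild types for 1452285_a_at. Wild type 1 stood above all others, and the difference was −0.07 ± 0.0615 SE (limma unadjusted p = 0.273).

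Wild type 1 was also the highest array for Eif3e, Eif3h, Eif3k and both Eif3i probe sets, as the map of deviations shows. Mean differences were −0.16 for Eif3k (−0.03 without the 5 arrays), −0.12 for Eif3m, −0.07 for Eif3h, and −0.02 to 0.04 for the 3 probe sets of Eif3e. Eif3b, a core scaffold subunit, differed by 0.02 ± 0.12 SE. Eif3d, which can itself bind the cap, and Eif3l had no ordinary probe set. Over all 42 ordinary members wild type 1 was the highest array in 12, or 28.6%, and the lowest in 9, or 21.4%. Over all ordinary probe sets it was highest in 16.5% and lowest in 25.2%. Knockout 1 was the lowest array in 10 members, or 23.8%, against 15.6% over all.

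**Figure D4:**
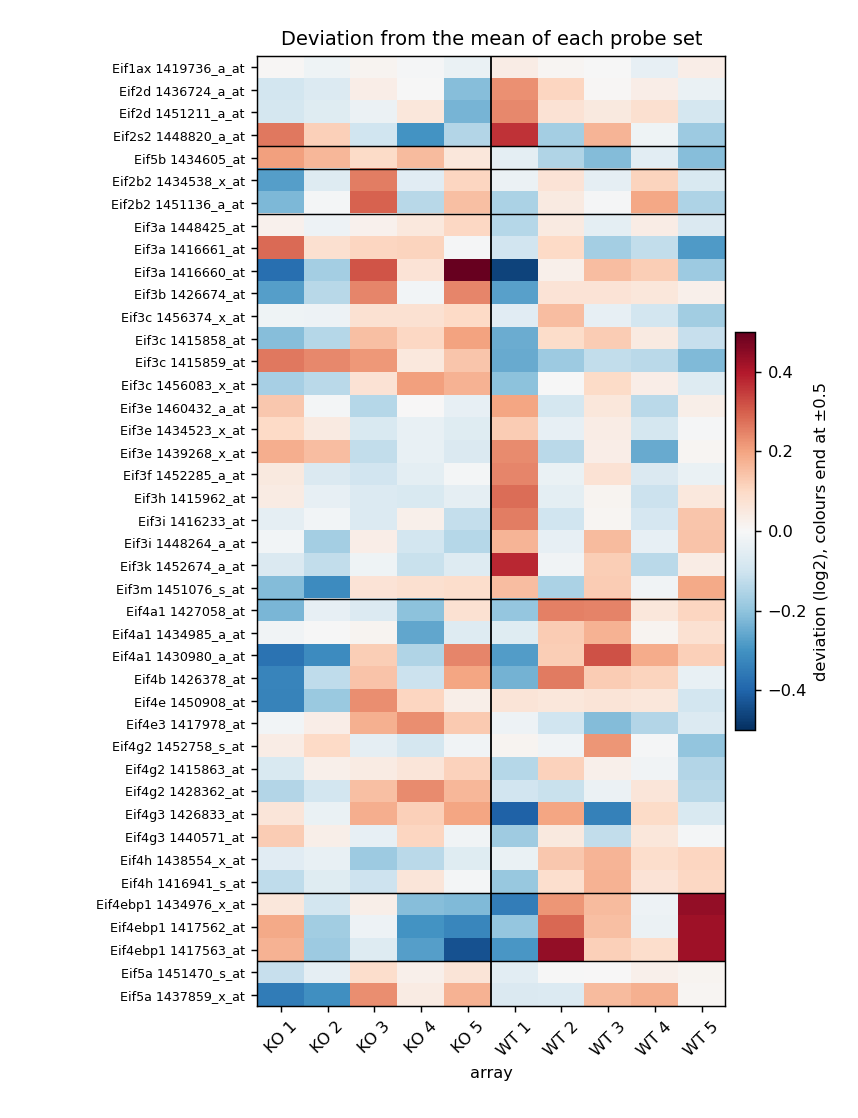
Deviation of each array from the mean of each of the 42 ordinary initiation factor probe sets (log2, colours end at ±0.5), with roles parted by lines and genotypes by the vertical line. Wild type 1 is the reddest array for every probe set from Eif3e to Eif3k, and Eif3c 1415859_at and Eif5b are red in all 5 knockouts and blue in all 5 wild types.

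Cap binding, scaffold and helicase factors had 13 ordinary probe sets of 34, in 7 of 10 genes. Of the 13, 5 were higher in knockouts and 8 lower, with a median of −0.06, and 0 passed the adjusted limma threshold. At an unadjusted p under 0.05 there was 1 in each direction among the 13, against 7.44% higher and 2.48% lower over all ordinary probe sets. Eif4e3, an atypical member of the cap-binding family, had 1 of its 2 probe sets ordinary, 1417978_at. The knockout arrays gave 8.24, 8.29, 8.43, 8.49 and 8.39, and the wild-type arrays 8.23, 8.16, 8.04, 8.11 and 8.19. The groups did not overlap, though knockout 1 and wild type 1 nearly met (difference 0.22 ± 0.0547 SE, limma unadjusted p = 0.00313, adjusted p = 0.293), or 0.21 without the 5 arrays (limma unadjusted p = 0.0279). Eif4e, the main cap-binding protein, had means of 8.44 ± 0.228 for knockouts and 8.5 ± 0.067 for wild types (SD, n = 5 each) in its single ordinary probe set of 4. Eif4e2, a cap-binding relative that represses translation, had 5 probe sets and no ordinary one.

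The helper of the helicase, Eif4h, had lower knockout values in 1438554_x_at. Its knockout arrays gave 10.26, 10.28, 10.13, 10.18 and 10.25, and its wild-type arrays 10.28, 10.45, 10.49, 10.40 and 10.42. Wild type 1 was close to the highest knockout, and the other wild types were clear of them (difference −0.19 ± 0.043 SE, limma unadjusted p = 0.00205, adjusted p = 0.246), or −0.22 without the 5 arrays (limma unadjusted p = 0.0177). The other ordinary Eif4h probe set, 1416941_s_at, differed by −0.09 ± 0.0687 SE. Eif4b, another helper of the helicase, differed by −0.09 ± 0.125 SE in 1 ordinary probe set of 3.

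For Eif4a1, the helicase of the cap complex, all 3 probe sets were ordinary, with differences of −0.13, −0.19 and −0.19 (limma unadjusted p = 0.0688, 0.0869 and 0.253). Eif4a2, its close relative, had 1 probe set at 11.67, low-variation, and Eif4a3, the helicase of the exon junction complex, had 1 at 5.80. Eif4g3, a scaffold of the cap complex, had 2 ordinary probe sets of 4, which differed by 0.21 ± 0.122 SE and 0.08 ± 0.0563 SE. Without the 5 arrays with markers of other tissues these were 0.0015 and −0.04, and without wild type 1 alone the first was 0.13.

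Eif4g2, a scaffold without the site that binds eIF4E, had 3 ordinary probe sets of 5. In 1452758_s_at the knockout arrays gave 10.58, 10.64, 10.49, 10.45 and 10.52, and the wild-type arrays 10.55, 10.52, 10.76, 10.54 and 10.35. Wild types held both extremes, and the means were 10.54 in both genotypes (difference 0.10 without the 5 arrays with markers of other tissues). The other 2 probe sets differed by 0.07 ± 0.0576 SE and 0.13 ± 0.082 SE. Over the 10 arrays 1452758_s_at correlated with 1415863_at at r = 0.227 (permutation p = 0.537, adjusted p = 0.567; rho = −0.164, p = 0.657, adjusted p = 0.657; r = −0.360 without the 2 farthest arrays). With 1428362_at it was r = −0.168 (permutation p = 0.643, adjusted p = 0.643; rho = −0.2, p = 0.583, adjusted p = 0.615; r = −0.752 without the 2 farthest arrays).

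The 4E-binding proteins hold eIF4E away from the scaffold, and Eif4ebp1 is known to be induced in muscle by fasting. All 3 Eif4ebp1 probe sets were ordinary. In 1434976_x_at the knockout arrays gave 10.74, 10.60, 10.72, 10.48 and 10.47, and the wild-type arrays 10.34, 10.91, 10.85, 10.66 and 11.13. Wild types held both the lowest array, replicate 1, and the highest, replicate 5. The means of the 3 probe sets were lower in knockouts by 0.18 ± 0.14, 0.25 ± 0.142 and 0.31 ± 0.164 (SE), and none passed (limma unadjusted p = 0.238, 0.109 and 0.0924). Without wild type 1 the differences were −0.29, −0.33 and −0.42 (limma unadjusted p = 0.0265, 0.0394 and 0.0172, adjusted p = 0.567, 0.62 and 0.501). Without wild type 5 instead, those of 1417562_at and 1417563_at were −0.18 and −0.24 (limma unadjusted p = 0.231 and 0.192). The difference of 1434976_x_at, in which wild type 5 was the highest array, also became smaller in size without that array. Without the 5 arrays with markers of other tissues the 3 differences were −0.24, −0.33 and −0.44.

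The brightest Eif4ebp1 probe set followed the other 2 from array to array. Over the 10 arrays 1434976_x_at correlated with 1417562_at at r = 0.935 (permutation p = 6e-05, adjusted p = 0.000633; rho = 0.952, p = 0.00011, adjusted p = 0.00104) and at r = 0.967 without the 2 farthest arrays. With 1417563_at it was r = 0.917 (permutation p = 0.00023, adjusted p = 0.00104; rho = 0.952, p = 6e-05, adjusted p = 0.00104) and r = 0.932. The 5 probe sets of Eif4ebp2 and the 1 of Eif4enif1, a protein that carries eIF4E, were low-variation, at 5.76 to 8.34. In bulk muscle these values do not tell which cells differ between animals.

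**Figure D5:**
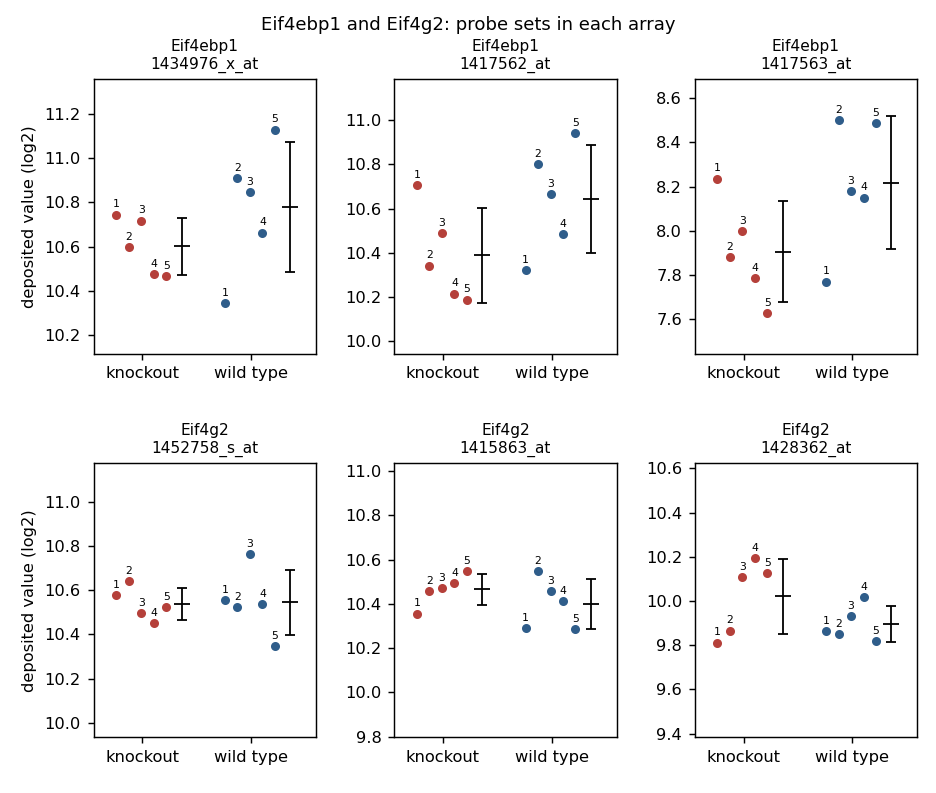
Deposited values (log2) of the ordinary probe sets of Eif4ebp1 (top) and Eif4g2 (bottom) in each array, numbered by replicate, with the mean and SD (n = 5) of each genotype beside the points. In all 3 Eif4ebp1 panels wild type 1 is the lowest wild-type point, whereas the order of arrays differs between the Eif4g2 panels.

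Eif5a, the hypusine-bearing factor that also serves elongation, was close to equal in the genotypes. In 1451470_s_at the knockout arrays gave 10.74, 10.81, 10.94, 10.88 and 10.92, and the wild-type arrays 10.80, 10.85, 10.86, 10.88 and 10.87. The knockout values were the more scattered, and the difference was 0.01 ± 0.0386 SE (limma unadjusted p = 0.898). Its other probe set differed by −0.08 ± 0.129 SE. Eif5a2, its paralog, had 2 low-variation probe sets, at 5.93 and 6.09.

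In all, 12 genes had more than 1 ordinary probe set, which gave 19 pairs of the brightest with another. In 0 of the 19 did the gap differ between genotypes past an adjusted exact permutation p of 0.05, and in 2, those of Eif3c and Eif3a, it was under 0.05 unadjusted. At least 4 pairs at the smallest possible p would have been needed for any to pass, so this count could hardly be other than 0. Across the 10 arrays the 2 probe sets of a pair correlated with an adjusted p under 0.05 in 12 pairs by r and in 8 by rho. With the brightest probe set standing for each gene, 0 of the 46 genes passed the adjusted limma threshold, where 0.0275% of all genes did, and 3 had an unadjusted p under 0.05, where 5.42% did. These were Eif5b (adjusted p = 0.233), Eif4h (adjusted p = 0.495) and Eif4a2, which was low-variation. Eif3c is not among them because 1415859_at is not its brightest probe set.

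Other genes around initiation were taken from lists of 50 genes with 116 probe sets. Of these 36 were ordinary, 12 of them higher in knockouts and 24 lower, with a median of −0.03. None passed the adjusted limma threshold, and 6 of the 116 had an unadjusted p under 0.05, 1 higher and 5 lower, a share of 5.17% against 6.62% of all probe sets. Of the ordinary ones 3 did, 8.33% against 9.92% of all ordinary probe sets, so neither share was above the background. Eef2k, the kinase that slows elongation by phosphorylating eEF2, had means of 8.31 ± 0.135 for knockouts and 8.13 ± 0.0887 for wild types (SD, n = 5 each) in 1437829_s_at (difference 0.18 ± 0.0702 SE, limma unadjusted p = 0.033). Atf4, the transcription factor translated when eIF2 is phosphorylated, had 10.39 ± 0.0701 and 10.51 ± 0.0876 in 1448135_at (difference −0.12 ± 0.0489 SE, limma unadjusted p = 0.037). Mknk2, a kinase of eIF4E, had 11.33 ± 0.0608 and 11.45 ± 0.102 (difference −0.12 ± 0.0518 SE, limma unadjusted p = 0.0464). The other ordinary probe set of Eef2k, 1439860_at, differed by 0.007 ± 0.0293 SE (limma unadjusted p = 0.805). That of Atf4, 1438992_x_at, differed by −0.095 ± 0.132 SE (limma unadjusted p = 0.492). By list, 9 ordinary probe sets of poly(A) binding and cap signalling gave 4 higher and 5 lower, where 49.2% of all ordinary probe sets were higher. The 5 of mTORC1 and its inputs gave 0 higher and 5 lower, but came from only 2 of the 12 genes measured. They were Ddit4 1428306_at and otherwise all of Sesn1. The differences for Sesn1 were −0.22, −0.03, −0.02 and −0.002. The integrated stress response gave 3 higher and 5 lower of 8, tRNA delivery and recycling 0 higher and 3 lower of 3, and elongation and release 5 higher and 6 lower of 11.

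The lists' other named members, up to 2 of smallest p in each list, are given by their differences. In the mTORC1 list, Sesn1, which restrains mTORC1, differed by −0.22 ± 0.162 SE in 1444376_at, and Ddit4, an inhibitor of mTORC1 induced by stress, by −0.21 ± 0.351 SE. Chac1, a target of Atf4, differed by 0.27 ± 0.169 SE and Ddx3x, an RNA helicase, by −0.09 ± 0.0642 SE in 1423042_at. The Ddx3x probe sets 1423043_s_at and 1416467_at differed by 0.04 and 0.007. Denr and Mcts2, which act with each other in reinitiation, differed by −0.05 ± 0.0494 SE and −0.11 ± 0.129 SE, and Eef1d, an elongation exchange factor, by −0.09 ± 0.0662 SE. None of the probe sets in this paragraph had an unadjusted limma p under 0.05.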

How the data were processed

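The authors deposited 1 value table of 10 arrays, with 45101 rows. Its values, from 4.935 to 13.96, were taken as log2 and as normalized between arrays by the authors because of their range and their even medians. The log base, the method and the software were not given in the sources used here, so the folds rest on that reading. The 64 control rows were left out. Gene names came from the platform annotation: 34945 probe sets had 1 gene, 932 several and 9160 none. The 6 member probe sets shared with another gene, all low-variation, were left out, and all 131 used matched the GRCm38.p6 RefSeq gene table, which also gave chromosomes. RefSeq promoters of the same build gave the sequences.

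Arrays were grouped by their titles. A linear model with moderated variance (lmFit, then eBayes with no trend, limma 3.58.1 under R 4.3.3) compared the genotypes over 45037 probe sets, with Benjamini-Hochberg adjustment at 0.05. Gaps between probe sets were compared by exact permutation and correlations by 100000 resamples, in Python 3.11.15 with pandas 2.3.3 and numpy 2.4.6, and figures drawn with matplotlib 3.10.9. The scripts were tested on simulated data. Values by array are given for members past the threshold, for ordinary members with the smallest unadjusted p under 0.05 (up to 12), for the brightest ordinary probe set of each role and for genes whose probe sets differed in the pair test. Others are given by means, ranges or counts, and pathway lists by counts and up to 2 probe sets each. For Eef2k, Atf4, Ddx3x and Sesn1 the differences of their other ordinary probe sets are added. Members, lists and tests were chosen with earlier results of these data known. Alternatives covered normalization, filters on level and SD, the moderation of variances, weights for arrays, a block for the replicate number, each array or the arrays with other tissues left out, and the probe set that stands for a gene.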

Additional observations from a re-analysis of the deposited data

Results flagged for a closer look

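The 42 ordinary members and 10 pathway probe sets, up to 2 of smallest p in each list, made 104 groups of 5 arrays. The other pathway probe sets were not examined in this way. Of the 104, 5 had 1 array farther from its nearest neighbour than Dixon's limit of 0.71 of the range, where chance alone gives 5.2. Among the members, Eif3b 1426674_at stood at 8.083 in wild type 1, against 8.381 to 8.424 in the other wild types. Eif4e 1450908_at stood at 8.378 in wild type 5, against 8.523 to 8.532. In the pathway lists, Denr 1420368_at stood at 8.872 in wild type 1, against 8.608 to 8.68, and Ddit4 1428306_at at 10.89 in wild type 1, against 12.0 to 12.41. Ddx3x 1423042_at stood at 10.76 in knockout 2, against 10.58 to 10.63 in the other knockouts. In 3 of the 5 the distant array was wild type 1, which also had epidermis and hair markers 1.04 above the median array. The part of those markers was not tested.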

How the results depend on the processing

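The count of member probe sets past the adjusted limma threshold was 1 as reported. It was 2, with Eif5b added, when probe sets were limited to those with a mean above the median, to those with an SD above 0.01, or to those with a pooled SD above 0.01; fewer probe sets were then tested. It was 0 with the replicate number as a block (Eif3c 0.37, adjusted p = 0.307) and 0 without the arrays with epidermis, hair or lymphocyte markers. With 1 array left out it ranged from 0 to 1. The count over all probe sets was 86 as reported, 117 with the filter on level and 143 with each SD filter. That count was 5 with the block, 0 without the arrays with other tissues and 31 to 57 with 1 array left out. At an unadjusted p under 0.05 there were 10 members as reported, where 6.62% of all probe sets were found. There were 6 after quantile normalization, 6 with each SD filter and 16 with array weights. The SD filters remove in advance the 4 low-variation members among the 10. With 1 array left out there were 7 to 17, the last without wild type 1. The share over all probe sets under these alternatives is not given here. By gene the count was 0 as reported and 1 with each SD filter and with the most variable probe set of each gene. The count for the pathway lists, whose alternatives were added after seeing the data, was 0 under every alternative run on them. That of probe set pairs was 0 throughout too, but at least 4 pairs at the smallest possible p were needed to pass, so it says nothing about stability. Over 20 alternatives the Eif3c difference was 0.35 to 0.41 and passed in 9, with adjusted p from 0.00736 to 0.71, and Eif5b was 0.25 to 0.29 and passed in 3, with adjusted p from 0.0287 to 0.835. Eif4h, Eif4e3, Eif3a and Eif3i kept their direction and passed in 0. Of 840 combinations of an ordinary member and an alternative, 40 changed sign, in 14 probe sets, none of them with an unadjusted p under 0.05 in either fit. The cause of the moves under the block, quantile normalization and array weights was not tested. After the genotype mean of each ordinary probe set was taken off, same-numbered arrays correlated at −0.4 to 0.322. Knockouts 1 and 2 correlated best with the wild type of their own number, at 0.25 and 0.322. Knockouts 3, 4 and 5 correlated best with a wild type of another number. The main fit did not treat the numbers as pairs. Signal over background was not part of the values used here, and low-variation members cannot be compared by size.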
